A study of Mus musculus with 4 samples.

Results

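The genes described here are 32 mouse genes of protein folding in the endoplasmic reticulum (ER) and of the response to unfolded protein, measured in single macrophages of perigonadal fat. They were taken by symbol, and all 32 were found among the 32285 genes of the count matrices. By role, 15 are chaperones and folding enzymes, 4 belong to ER-associated degradation (ERAD), 4 are stress sensors or the factor that a sensor activates, and 6 are PERK-ATF4 genes (Atf4, Ddit3, Trib3, Asns, Chac1 and Sesn2). The last 3 are Ppp1r15a, which encodes the stress-inducible subunit of the eIF2α phosphatase, Sec61b and Ssr1. Sec61b encodes a part of the channel that carries new proteins into the ER, and Ssr1 a part of a complex associated with that channel.

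Secreted and membrane proteins enter the ER unfolded and are folded there by chaperones such as BiP, by the calnexin and calreticulin lectins and by disulfide isomerases, while failed products are returned to the cytosol and degraded by ERAD. When unfolded protein builds up, the sensors IRE1, PERK and ATF6 start the unfolded protein response: IRE1 splices Xbp1 mRNA into the form that encodes an active factor, ATF6 is cut to release a factor, and both factors raise chaperone and ERAD genes. PERK phosphorylates eIF2α, which slows translation and lets ATF4 protein be made, and ATF4 raises genes of amino acid supply and of the stress program. Most of these steps act on RNA splicing or protein, so the gene counts used here do not show whether a sensor was active, and Xbp1 counts do not separate its spliced from its unspliced form.

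The cells were live CD45+ CD11b+ CD64+ cells, negative for a lineage stain and sorted from perigonadal white fat, and RNA was counted by the 10x Genomics Chromium 3′ assay, which tags each captured molecule with a unique molecular identifier (UMI). There were 4 groups with 1 library each: WT mice on a high-fat diet (WT HFD), mice with a conditional knockout of the repressor BLIMP1 on the same diet (CKO HFD), and both genotypes on the normal diet (WT ND and CKO ND). The labels do not name the driver of the deletion, the time on diet, the age of the mice or how many mice made up a library. Each group is 1 library, so a difference between groups cannot be told apart from a difference between library preparations, and no test between groups was made.

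After filtering (at least 500 UMIs, at least 300 genes, at most 10% mitochondrial UMIs) the libraries kept 4650, 8731, 3705 and 4302 cells in the order WT HFD, CKO HFD, WT ND and CKO ND, which is kept throughout. Median depth was 14492.5 UMIs per cell in WT HFD and 3923 to 4092 in the others, so every kept cell of at least 2000 UMIs (4583, 7655, 3030 and 3482 cells) was thinned at random to 2000 UMIs. Levels are CPM, the UMIs of a gene relative to all thinned UMIs of its library, from 6060000 to 15310000 UMIs per library. The mitochondrial limit removed 400 cells of WT HFD and 7 to 23 of the others, and 2 to 9 barcodes were shared between pairs of libraries. All 10 macrophage markers examined were detected in every library. Prdm1, which encodes BLIMP1, was at 22.3, 22.6, 30.4 and 35.8 CPM, not lower in the libraries labelled CKO; which exons were removed is not stated in the labels, so 3′ counts do not check the deletion.

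Promoter windows from RefSeq (GRCm38.p6, 250 bases before to 50 after the annotated start) were matched for 29 of the 32 genes and not for Manf, Hyou1 and Atf6. The ER stress response element (ERSE, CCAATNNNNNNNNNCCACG on either strand), which NF-Y and ATF6 are known to bind, was found in 8 of the 29 and in 0.119% of the 32851 windows of all genes. Its shorter form ERSE-II (ATTGGNCCACG) was found in 2 of the 29, Dnajb11 and Herpud1, and in 0.0365% of all windows; the match in Dnajb11 lies after the start and is not printed. The stretches below are shown because ERSE and ERSE-II were found in folding and ERAD genes and in 0 of the PERK-ATF4 genes, with the matched letters in capitals and 15 bases on each side. Each is written 5′ to 3′ on the strand of its gene, where a match on the other strand appears as its reverse complement.
Hspa5 (chr2:34772010-34772058, + strand): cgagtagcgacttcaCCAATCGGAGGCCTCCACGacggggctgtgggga
Calr (chr8:84847060-84847108, - strand): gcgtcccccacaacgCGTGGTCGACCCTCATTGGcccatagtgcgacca
Pdia6 (chr12:17266476-17266524, + strand): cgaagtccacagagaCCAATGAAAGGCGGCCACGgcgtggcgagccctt
Creld2 (chr15:88819505-88819553, + strand): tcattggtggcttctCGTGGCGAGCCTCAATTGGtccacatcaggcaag
Dnajc3 (chr14:118937812-118937860, + strand): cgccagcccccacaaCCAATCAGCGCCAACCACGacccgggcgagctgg
Canx (chr11:50325785-50325833, - strand): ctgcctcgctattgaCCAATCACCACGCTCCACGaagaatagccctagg
Syvn1 (chr19:6046517-6046565, + strand): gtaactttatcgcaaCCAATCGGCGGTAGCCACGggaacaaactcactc
Hsp90b1 (chr10:86705623-86705671, - strand): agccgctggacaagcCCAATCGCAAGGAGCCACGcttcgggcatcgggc
Herpud1 (chr8:94386362-94386402, + strand): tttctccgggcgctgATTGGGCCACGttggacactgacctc

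The element lay 26 to 212 bases before the start, and Hsp90b1 held a second copy closer to the start that is not printed. A match to the 8 letters TGACGTGG, an XBP1 binding motif, was found in 0 of the 29 windows and in 0.676% of all windows. The C/EBP-ATF composite element that ATF4 uses, searched as TGATGNAA, was found in Asns, Chac1, Trib3 and Herpud1 and in 3.97% of all windows. The match in Trib3 lies after the start. The other 3 matches are printed, again with the matched letters in capitals. None of the ERSE forms overlaps a TGATGNAA match in these windows, and Herpud1 alone of the 29 held both kinds. A match is only a run of letters, and these data hold no binding measurement.
Asns (chr6:7693210-7693247, - strand): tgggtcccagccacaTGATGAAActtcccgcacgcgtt
Chac1 (chr2:119351034-119351071, + strand): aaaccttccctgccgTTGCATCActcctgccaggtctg
Herpud1 (chr8:94386302-94386339, + strand): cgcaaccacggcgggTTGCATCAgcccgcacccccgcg

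**Figure D1:**
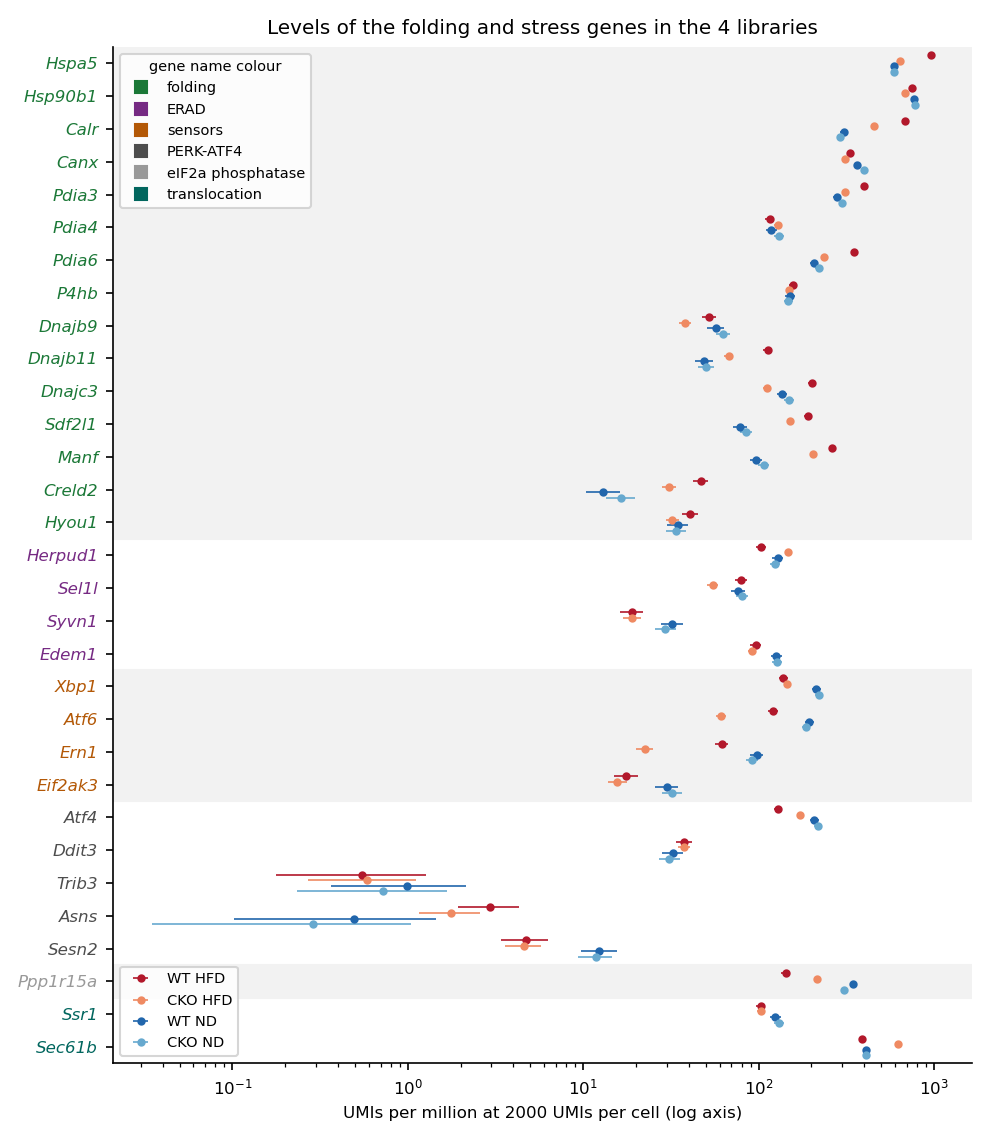
Level of 31 of the 32 genes in each library, in CPM at 2000 UMIs per cell on a log axis, with exact 95% Poisson intervals; Chac1, with 0 thinned UMIs in every library, is left out. Name colours give the role, and red and blue points are HFD and ND libraries: the red points of Sdf2l1, Manf and Creld2 lie to the right of the blue ones and those of Xbp1, Atf6, Ern1 and Eif2ak3 to the left.

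On the high-fat diet the folding genes were high, and the sensor genes low, against most other genes of the same libraries. Of the 15 folding genes, 8 were higher in both HFD libraries than in both ND libraries (Hspa5, Calr, Pdia3, Pdia6, Dnajb11, Sdf2l1, Manf and Creld2), which held for 22.6% of the 8593 genes that reached 10 CPM in any library. Another 3 (Hsp90b1, Canx and Dnajb9) were lower in both, which held for 55.6% of all genes. All 4 sensor genes were lower in both HFD libraries. Of the 32 genes 29 passed the level filter, Trib3, Asns and Chac1 did not, and Sesn2 passed through its ND levels only. These counts depend on scaling and on the cells used. TMM scaling, which sets the median of all genes near 0, placed 14 of 15 folding genes higher in both HFD libraries (39.7% of all genes). It still placed all 4 sensor genes lower (36.2%). Among cells with a C1q UMI, 5 folding genes were higher (21.4% of all genes) and 4 lower (55.5%), and all 4 sensor genes were lower. Such cells made up 84.9%, 86.7%, 64.4% and 69.7% of the libraries.

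Manf, on chromosome 9 (106838312 to 106891979, GRCm38, minus strand), encodes a small ER-resident and secreted protein that binds BiP. It was at 262, 203, 96.5 and 107 CPM. The 2 HFD libraries lie far above the 2 ND libraries, with no overlap of their counting intervals. The HFD over ND ratio was 2.71 (95% interval 2.48 to 2.98) in WT and 1.90 (1.76 to 2.07) in CKO.

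Sdf2l1, on chromosome 16 (17130138 to 17132383, minus strand), encodes a partner of the ER DnaJ proteins that keeps BiP clients soluble. Its levels were 190, 151, 78.1 and 85.0 CPM, again with both HFD libraries on top, and its ratios 2.44 (2.20 to 2.71) and 1.77 (1.62 to 1.94). Creld2, on chromosome 15 (88819646 to 88826683, plus strand), encodes an ER protein with disulfide isomerase activity and was at 46.8, 30.7, 13.04 and 16.4 CPM. Its ratios, on the fewest UMIs of the 3 (79 and 114 in the ND libraries), were 3.59 (2.82 to 4.62) and 1.88 (1.53 to 2.32). These 3 were the members over 1.5-fold higher in both HFD libraries than in both ND libraries, a size reached by 6.61% of all genes.

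Calr, the gene of calreticulin, was close to that size, at 680, 456, 305 and 291 CPM, with ratios of 2.23 (2.12 to 2.35) in WT and 1.57 (1.49 to 1.65) in CKO. Dnajb11, a DnaJ cofactor of BiP, was at 113, 67.6, 48.8 and 50.1 CPM, which gives 2.31 (2.03 to 2.64) and 1.35 (1.19 to 1.53). Hspa5, the gene of BiP, was at 965, 635, 591 and 592 CPM. WT HFD alone stands apart for Hspa5: its ratio was 1.63 (1.57 to 1.70) in WT and 1.07 (1.03 to 1.11) in CKO. The disulfide isomerase gene Pdia6 had the same shape, at 349, 235, 207 and 221 CPM, with ratios of 1.68 (1.57 to 1.80) and 1.06 (1.00 to 1.13). Pdia3, the isomerase that works with calnexin and calreticulin, was at 396, 310, 278 and 300 CPM.

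The remaining folding genes went several ways. The isomerase genes Pdia4 (116, 129, 118 and 131 CPM) and P4hb (156, 149, 152 and 148 CPM) and the BiP exchange factor gene Hyou1 (40.6, 32.3, 34.5 and 33.9 CPM) did not separate the diets. Hsp90b1, the gene of GRP94, was at 747, 679, 765 and 779 CPM, and the lectin gene Canx at 331, 312, 364 and 399 CPM. Both were lower in both HFD libraries by plain CPM and higher in both after TMM scaling, so their direction follows the scaling. Dnajb9, whose product binds BiP at IRE1, was at 52.3, 38.0, 56.9 and 62.6 CPM, with HFD over ND ratios of 0.918 (0.798 to 1.06) in WT and 0.607 (0.535 to 0.689) in CKO. Dnajc3, which encodes p58IPK, an inhibitor of PERK and a BiP cofactor, was at 201, 111, 136 and 149 CPM, with WT HFD above and CKO HFD below both ND libraries, and its ratios were 1.47 (1.35 to 1.60) and 0.746 (0.690 to 0.807).

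In WT, 7 of the 15 folding genes were over 1.5-fold higher on HFD (13.1% of 8408 genes) and 0 over 1.5-fold lower (28.8%), with a median log2 ratio of 0.55 against −0.24 for all genes. In CKO, 4 were over 1.5-fold higher (12.6% of 8332 genes) and 1, Dnajb9, over 1.5-fold lower (44.9%), with a median of 0.05 against −0.48. In the plot of diet ratios these genes spread to the right of the dotted line for all genes. The summed folding list stood at 4644, 3538, 3243 and 3364 CPM.

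**Figure D2:**
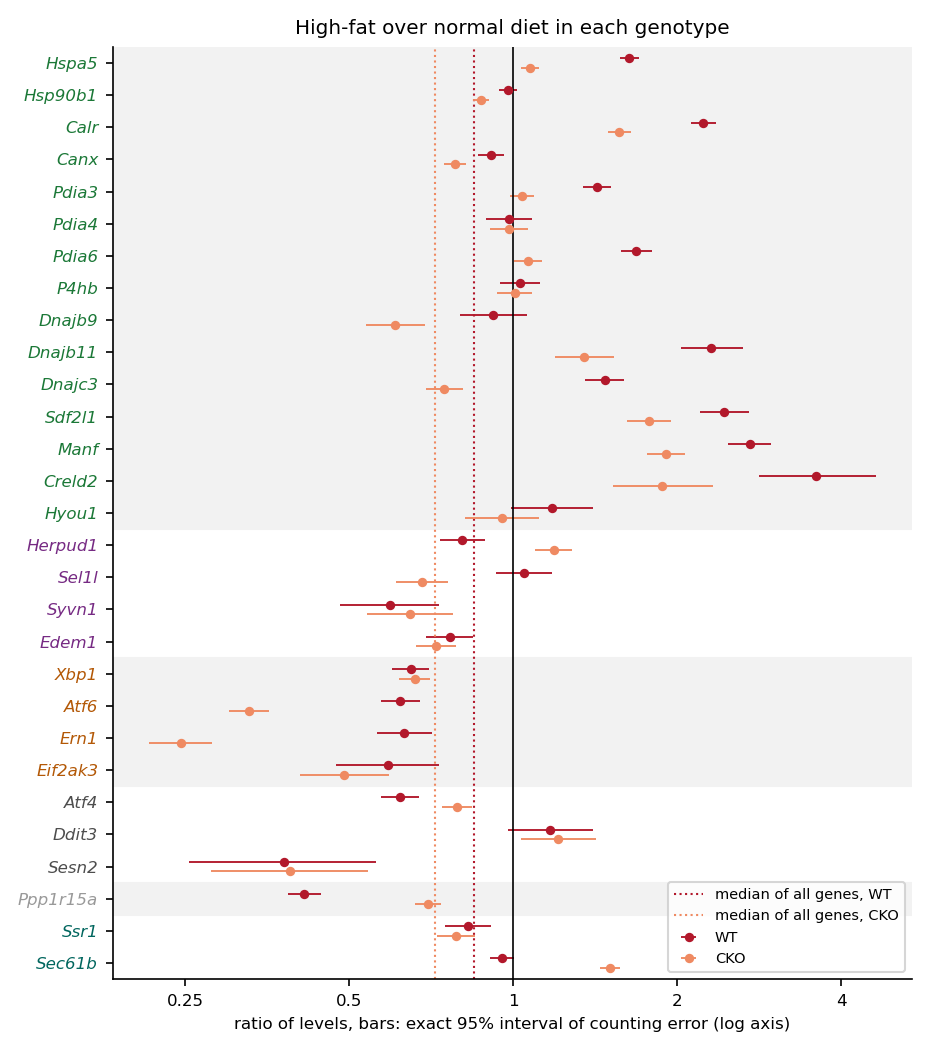
Ratio of HFD over ND levels for the 29 genes that passed the level filter, in WT (dark red) and CKO (orange), on a log axis with exact 95% intervals of counting error; dotted lines are the medians of all genes in each comparison. Sdf2l1, Manf and Creld2 lie at 1.77 or more in both genotypes, and Xbp1, Atf6, Ern1 and Eif2ak3 at 0.659 or less.

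The ERAD genes did not share the order of the chaperones. Syvn1, which encodes the ubiquitin ligase HRD1, was at 19.0, 19.0, 32.01 and 29.4 CPM, and Edem1, which hands misfolded glycoproteins to ERAD, at 96.0, 91.8, 126 and 128 CPM. Both were lower in the 2 HFD libraries, except that the CKO log2 ratio of Edem1 was 0.04 after TMM scaling. Sel1l, the HRD1 partner, was at 79.4, 54.7, 76.1 and 80.4 CPM, and Herpud1, an ERAD adaptor, at 103, 147, 128 and 124 CPM. CKO HFD is the lowest of the 4 libraries for Sel1l and the highest for Herpud1, and neither gene separates the diets.

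Among the sensors, Xbp1 was at 138, 145, 214 and 221 CPM, and its ratios were alike, 0.648 (0.600 to 0.701) in WT and 0.659 (0.617 to 0.704) in CKO. Atf6 was at 121, 60.9, 195 and 186 CPM and Ern1, the gene of IRE1, at 61.4, 22.4, 97.4 and 91.3 CPM. For both, CKO HFD was far below the other 3 libraries, with CKO ratios of 0.327 (0.300 to 0.356) and 0.245 (0.214 to 0.280). The 10 cells with most Ern1 UMIs held 10.3%, 6.71%, 11.5% and 17.3% of the Ern1 UMIs of their library. Eif2ak3, the gene of PERK, was at 17.6, 15.7, 29.9 and 32.02 CPM. After TMM scaling the log2 ratios of all 4 sensors stayed below 0, down to −1.48 for Ern1 and only to −0.09 for Xbp1, both in CKO.

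By plain CPM the PERK-ATF4 genes went several ways. Atf4 was at 129, 171, 208 and 217 CPM, with HFD over ND ratios of 0.620 (0.572 to 0.671) in WT and 0.787 (0.738 to 0.838) in CKO, where TMM scaling turned the log2 ratio to 0.16. Ddit3, the gene of the death-linked factor CHOP, was at 37.7, 37.5, 32.3 and 31.0 CPM. Its ratios were 1.17 (0.977 to 1.40) and 1.21 (1.03 to 1.42), so only the CKO interval leaves out 1. A second gene model lies inside Ddit3 and has 0 UMIs, so reads shared by both models may be missing from these counts.

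Sesn2, which encodes a stress-induced inhibitor of mTORC1, was at 4.69, 4.57, 12.4 and 11.8 CPM, a ratio of 0.379 (0.254 to 0.559) in WT and 0.388 (0.278 to 0.541) in CKO. Asns, the gene of asparagine synthetase, went the other way on few molecules: 27, 27, 3 and 2 thinned UMIs, with ratios of 5.95 (1.83 to 30.6) and 6.14 (1.54 to 53.3). Trib3, a pseudokinase gene, had 5 to 9 UMIs in each library, too few to compare. Chac1, which encodes a glutathione-degrading enzyme, had 0 thinned UMIs in all 4, which allows at most 0.196 to 0.495 CPM (3 counts).

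Syvn1, Atf6, Eif2ak3 and Sesn2 were the members over 1.5-fold lower in both HFD libraries than in both ND libraries, a size reached by 22.2% of all genes. Under TMM scaling Sesn2 alone remained, beside 9.71% of all genes. Sesn2 reached 10 CPM in the ND libraries only, so its place in this count depends on the level filter. Among cells with a C1q UMI, Syvn1 and Eif2ak3 remained, beside 21.0% of all genes. Ppp1r15a, whose product GADD34 reverses eIF2α phosphorylation, was at 142, 214, 345 and 307 CPM, with ratios of 0.413 (0.385 to 0.443) in WT and 0.698 (0.661 to 0.737) in CKO. After TMM scaling its log2 ratio was −1.03 in WT and −0.0074 in CKO. Ppp1r15a is also an early stress gene of cell isolation. The summed level of 15 dissociation response genes was 14981, 18467, 20051 and 19892 CPM in the same libraries, lowest in WT HFD too. The part of that response in the Ppp1r15a values was not tested. Ssr1 was at 103, 103, 124 and 131 CPM. Sec61b, the β subunit of the Sec61 channel, was at 388, 620, 407 and 412 CPM, so that only CKO HFD stands apart.

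Related genes outside the 32 were counted in the same way, beside the shares of all genes given above (22.6% higher and 55.6% lower in both HFD libraries). Of 28 other genes of ER entry, signal cleavage and N-glycosylation, 13 were higher and 8 lower in both HFD libraries. The most abundant were Sec61g (371, 755, 371 and 320 CPM) and Ssr4 (289, 416, 111 and 104 CPM). Of 22 other folding genes that passed the filter 7 were higher and 7 lower, led by Erp29 (442, 359, 209 and 239 CPM) and Selenok (268, 439, 258 and 258 CPM). Of 18 other ERAD genes 1, Derl2 (57.4, 51.0, 22.1 and 23.3 CPM), was higher and 9 were lower, while the 2 most abundant, Vcp and Selenos, were at 175 to 235 and 109 to 129 CPM.

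Of 31 genes of the wider stress program of eIF2α and ATF4 that passed the filter, 11 were higher and 12 lower in both HFD libraries. The 2 most abundant were Atf3 (1086, 1292, 658 and 615 CPM), a stress factor also induced by cell isolation, and the amino acid carrier gene Slc3a2 (141, 101, 106 and 105 CPM). Chosen after their values were seen, the secreted stress factor gene Gdf15 (135, 124, 37.0 and 28.6 CPM) and the cystine carrier gene Slc7a11 (9.93, 8.82, 43.9 and 28.6 CPM) show the opposite ends of the list. Of 14 cytosolic heat shock genes 7 were higher and 0 lower, led by Hspa8 (1829, 1282, 977 and 962 CPM) and Hsp90ab1 (1176, 802, 836 and 871 CPM).

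In the same comparisons the ratios over all genes depended on gene span. Across 5 equal groups of genes from the shortest to the longest span, the median log2 ratio of HFD over ND went from 0.24 to −0.59 in WT and from 0.39 to −1.29 in CKO, and that of CKO over WT went from 0.13 to −0.65 on HFD but only from 0.00 to 0.05 on ND. The sensor genes Atf6 (163 kb), Ern1 (93.2 kb) and Eif2ak3 (60.7 kb) are long, while Xbp1 (5.24 kb) and Ppp1r15a (3.35 kb) are short. Set against genes of like span, Atf6 had log2 ratios of −0.10 in WT and −0.31 in CKO. Xbp1 had −0.86 and −0.98 and Ppp1r15a −1.51 and −0.90. The median of the 4 sensor genes was −0.22 in WT and −0.50 in CKO, against −0.67 and −1.29 by plain CPM. The span of Manf, 53.7 kb as annotated, is also long, and its values against like genes were 1.82 and 1.65. Sdf2l1 (2.25 kb) came to 1.04 and 0.43 and Creld2 (7.04 kb) to 1.53 and 0.48. Hspa5 in CKO went to −0.28. The 3 PERK-ATF4 genes that passed the filter (Atf4, Ddit3 and Sesn2) were all below 0 in both genotypes, which held for 39.4% of all genes. Their median was −0.92 in WT and −0.73 in CKO, against −0.69 and −0.34 by plain CPM, where Ddit3 was above 0. What sets the span trend was not tested, and the labels do not state how intron reads were handled.

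**Figure D3:**
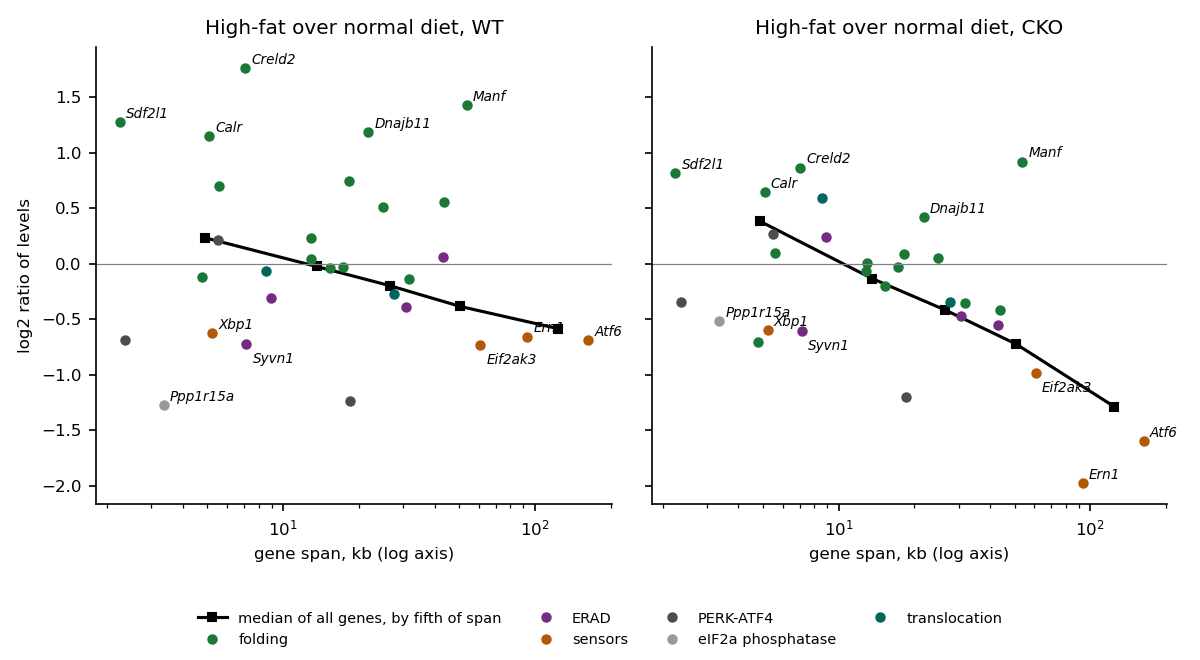
Log2 ratio of HFD over ND against gene span in kb (log axis) for the same 29 genes, coloured by role, in WT (left) and CKO (right). Black squares are the medians of all genes in 5 groups of span, which fall from 0.24 to −0.59 and from 0.39 to −1.29; Manf lies far above the line, Atf6 near it, and Xbp1, Syvn1 and Ppp1r15a below it.

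The diet difference was also read within cells split by 1 UMI of a marker gene. A cell held Trem2, Lyve1 or Ccr2 without the other 2, or none of the 3. Exclusion was judged on thinned cells, so a cell of 1 subset can still express another marker. In WT HFD, Trem2 was found in 35.6% of cells after thinning and 72.8% before, and Ccr2 in 65.4% and 85.6%. In WT ND the shares for Trem2 were 7.49% and 16.5%. Cells with UMIs of 2 or 3 markers, 21.7%, 20.3%, 9.83% and 10.9% of the libraries, were left out. Trem2+ cells numbered 730, 746, 102 and 97, Lyve1+ cells 96, 488, 211 and 428, and Ccr2+ cells 2026, 2995, 1552 and 1630. Several marker lists of other or neighbouring cell types differed with diet in all cells. In WT, 8 of 12 lipid-associated macrophage markers were over 1.5-fold higher on HFD (median log2 ratio 1.61), 7 of 8 non-classical monocyte markers over 1.5-fold lower (−2.63) and 6 of 7 dendritic cell markers over 1.5-fold lower (−2.47); in CKO the same counts were 8 of 12, 7 of 8 and 6 of 7. Fibroblast markers were higher, with 10 genes summing to 816, 514, 186 and 201 CPM, and sat mostly in the cells with none of the markers; in Ccr2+ cells the same sum was 220, 184, 186 and 200 CPM. Within Ccr2+ cells the non-classical monocyte sum was 841, 749, 1600 and 1417 CPM, and the part of cell makeup in the diet ratios was not tested. Manf had HFD over ND ratios there of 2.38 (2.09 to 2.71) in WT and 1.71 (1.52 to 1.92) in CKO. Sdf2l1 had 1.90 (1.66 to 2.18) and 1.46 (1.29 to 1.66), and Creld2 had 2.90 (2.06 to 4.16) and 1.69 (1.27 to 2.27).

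In Trem2+ cells the Manf ratios were 1.76 (1.24 to 2.58) and 2.97 (1.86 to 5.06), and in Lyve1+ cells 2.70 (1.78 to 4.11) and 1.74 (1.35 to 2.26). The ratio was above 1 in each of these cell sets in both genotypes. The Xbp1 ratio was below 1 in the same sets, although the interval of WT Trem2+ cells reached 1.10, and stood at 0.682 (0.608 to 0.764) and 0.746 (0.676 to 0.823) in Ccr2+ cells. Genes of cell division summed to 773, 590, 320 and 451 CPM and so moved with diet as well. Without the cells that held a UMI of any of those 14 genes, an alternative added after the data were seen, the same 3 members were over 1.5-fold higher in both HFD libraries. Markers of B and plasma cells, which carry a large ER, summed to 186, 303, 357 and 365 CPM, mostly Ighm (142, 158, 220 and 256 CPM). Igkc, the other abundant one, was at 0.982, 98.2, 67.8 and 62.3 CPM, and the median log2 ratio of the 5 markers that passed in CKO was 0.20; their part in the diet ratios was not tested.

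On the high-fat diet most folding genes, like most genes, were lower in the CKO library than in the WT library. CKO over WT on HFD had 14 of 15 folding genes below 1 (69.8% of all genes), a median log2 ratio of −0.37 against −0.21 for all genes. Of them 4 (Hspa5, Dnajb11, Dnajc3 and Creld2) were over 1.5-fold lower (19.7% of 7870 genes) and 0 over 1.5-fold higher (5.59%). After TMM scaling the median was −0.13 and 11 of 15 were below 1 (46.5% of all genes).

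By plain CPM Dnajc3 had the lowest CKO over WT ratio of the folding genes on HFD, 0.554 (0.518 to 0.592). Hspa5 had 0.658 (0.640 to 0.678), Calr 0.671 (0.648 to 0.694) and Dnajb11 0.599 (0.549 to 0.654). The sensors Atf6 at 0.505 (0.462 to 0.551) and Ern1 at 0.365 (0.318 to 0.418) were lower still, by plain CPM. Against genes of like span the log2 ratios of Atf6, Ern1 and Dnajc3 shrank to −0.33, −0.77 and −0.52, while those of Hspa5 and Creld2 were −0.73 and −0.72.

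Higher in CKO HFD than in WT HFD were Sec61b at 1.60 (1.54 to 1.66), Ppp1r15a at 1.505 (1.41 to 1.61), Herpud1 at 1.43 (1.32 to 1.54) and Atf4 at 1.33 (1.24 to 1.42). The dissociation response genes were higher there too, by a median log2 ratio of 0.37 with 4 of 15 over 1.5-fold higher, and their part in the Ppp1r15a and Atf4 values was not tested. Fibroblast markers were lower, at 514 against 816 CPM. Monocyte markers were higher, 8 of 11 over 1.5-fold with a median log2 ratio of 1.25 and a sum of 11177 against 5819 CPM, as were 6 of 10 resident markers over 1.5-fold, and 5 of 12 lipid-associated markers were over 1.5-fold lower. Inside Ccr2+ cells, where the fibroblast sum was 184 against 220 CPM and the monocyte sum 12753 against 6570 CPM, the ratio of Hspa5 was 0.666 (0.637 to 0.697), of Dnajc3 0.543 (0.489 to 0.602), of Sec61b 1.68 (1.58 to 1.78) and of Herpud1 1.31 (1.16 to 1.47). These 4 lie on the same side of 1 as in all cells, and the part of the marker lists in them was not tested.

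On the normal diet the genotypes were close. Of the 29 members that passed the filter, 0 were over 1.5-fold higher (0.945% of 8254 genes) and 0 over 1.5-fold lower (0.993%). The folding median was 0.11 against 0.03 for all genes. The member farthest from 1 was Creld2 at 1.26 (0.934 to 1.69), and Ppp1r15a was at 0.891 (0.838 to 0.946). With 1 library for each group, a genotype difference on either diet cannot be told apart from the preparation of the libraries.

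**Figure D4:**
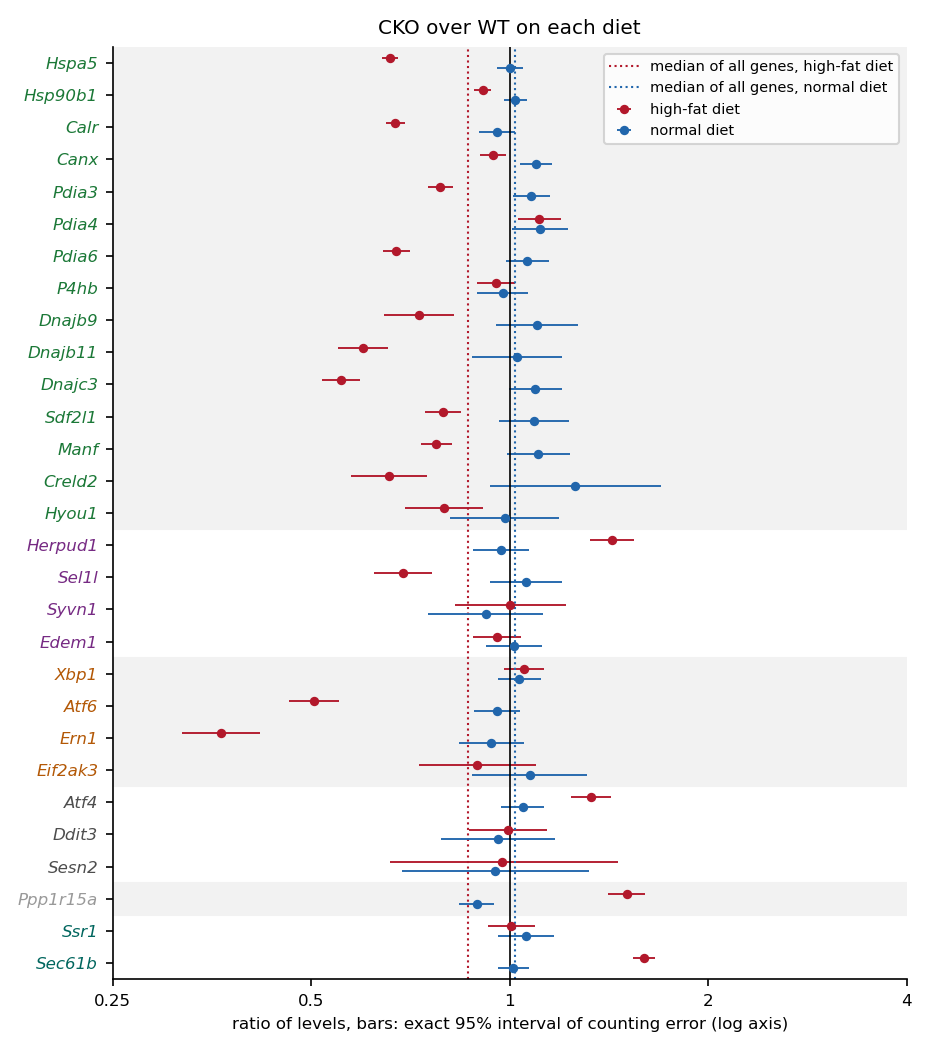
Ratio of CKO over WT levels for the same 29 genes on the high-fat diet (red) and the normal diet (blue), on a log axis with exact 95% intervals of counting error and dotted medians of all genes. On the normal diet the points lie between 0.891 and 1.26, and on the high-fat diet they reach from 0.365 (Ern1) to 1.60 (Sec61b).

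The marker subsets could be tested, because each library holds all 3 and serves as its own block. UMIs of the thinned cells were summed into 12 profiles (4 libraries by 3 subsets) and compared with edgeR's quasi-likelihood test, library as a block, Benjamini-Hochberg adjustment over 9636 genes and a threshold of 0.05. The p-values measure how a difference recurs over these 4 libraries. Levels of the subsets are CPM after TMM scaling, which moved the median log2 ratio of all genes between Trem2+ and Lyve1+ cells in CKO HFD from −0.22 to 0.03. Lipid-associated markers (11 of 12) were higher in Trem2+ than in Lyve1+ cells and resident markers (11 of 11) lower, and at least 1 C1q UMI was found in 55.5% to 100% of the cells of each subset.

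Of the 15 folding genes, 5 were called higher in Trem2+ than in Lyve1+ cells and 1, Dnajc3, lower. Herpud1 and Ppp1r15a were called lower as well. By plain CPM the summed folding list was lower in Trem2+ cells of every library. Its values were 4922 against 5198, 3698 against 3807, 3456 against 3744 and 2964 against 3736 CPM, with counting intervals apart only in CKO ND. The abundant Hspa5 and Hsp90b1 were not called (log2 folds −0.09 and −0.01). Of the 29 members tested 6 were higher (13.9% of all genes) and 3 lower (9.72%). Sec61b rose by a log2 fold of 0.85 (SE 0.17, adjusted p = 0.000419) and was higher in 4 of 4 libraries, at 480 against 268, 907 against 469, 364 against 196 and 287 against 206 CPM. Dnajc3 fell by 0.68 on the log2 scale (SE 0.16, adjusted p = 0.00191), at 192 against 374, 132 against 173, 111 against 201 and 115 against 177 CPM. In both genes every library shows the same order. Both calls held with any 1 library left out, with adjusted p from 0.000206 to 0.015 and from 0.00186 to 0.031.

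Sdf2l1 rose by 0.69 (SE 0.20, adjusted p = 0.0135), at 257 against 167, 260 against 147, 44.4 against 41.4 and 70.6 against 59.9 CPM, so most of the difference lies in the HFD libraries. Dnajb11 rose by 0.62 (SE 0.19, adjusted p = 0.0163), higher in 4 of 4 libraries, and Manf by 0.51 (SE 0.17, adjusted p = 0.0325), higher in 3 of 4. Creld2 (log2 fold 0.77, adjusted p = 0.0400) was higher in 2 libraries and lower in 2. P4hb (0.42, adjusted p = 0.0406) was higher in 4 of 4. The calls of Creld2 and P4hb were lost whichever library was left out, with adjusted p up to 0.425 and 0.218. Sdf2l1 kept its call in 3 of the 4 fits with a library left out (adjusted p up to 0.197), and Dnajb11 and Manf in 2 of 4 each (up to 0.129 and 0.381).

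Herpud1 fell by 0.58 (SE 0.17, adjusted p = 0.0114), at 79.6 against 146, 130 against 221, 102 against 118 and 106 against 119 CPM, and Ppp1r15a fell by 0.51 (SE 0.15, adjusted p = 0.0152), lower in 4 of 4. Each kept its call in 2 of the 4 fits with a library left out, with adjusted p up to 0.214 and 0.195. Dissociation response genes fell in the same contrast, 8 of 15 with 0 higher, and their part in the Ppp1r15a call was not tested. Cell division genes rose, 5 of 14 with 0 lower. Of the 4 sensor genes 0 passed, with log2 folds from −0.20 (Eif2ak3) to 0.06 (Ern1), and of the 3 PERK-ATF4 genes tested 0 passed (Atf4 at −0.16, Ddit3 at −0.35 and Sesn2 at 0.97). By edgeR 12 of the 29 members had an unadjusted p under 0.05, beside 3335 of all 9636 genes tested. Without CKO HFD 1 member was called higher (7.95% of all genes) and 1 lower (5.86%). Without WT HFD the counts were 3 (9.66%) and 1 (6.36%). Without WT ND 3 were called higher (10.9%).

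**Figure D5:**
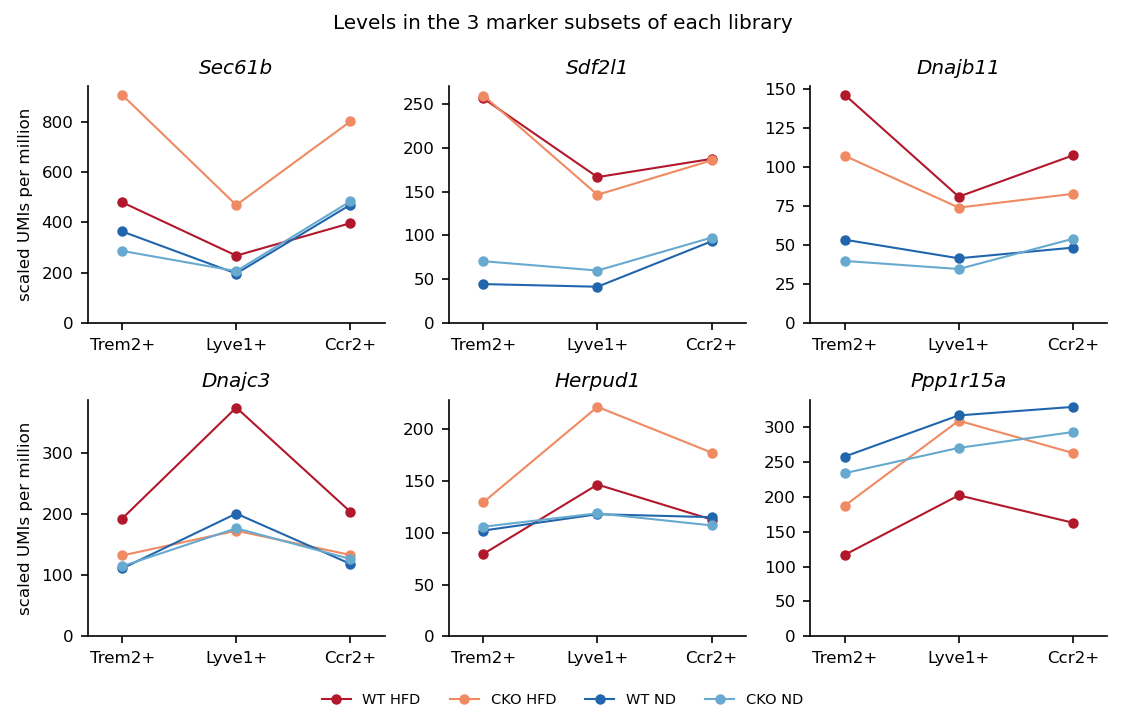
Levels of 6 genes in the Trem2+, Lyve1+ and Ccr2+ cells of each library, in TMM-scaled CPM on axes that start at 0; each line joins the subsets of 1 library. Sec61b, Sdf2l1 and Dnajb11 are lowest and Dnajc3 highest in Lyve1+ cells of every library, and Ppp1r15a is lowest in Trem2+ cells of every library.

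Against Ccr2+ cells, Trem2+ cells differed little in these genes. None of the 29 was higher (7.29% of all genes) and 1, Ppp1r15a, was lower (7.21%), with a log2 fold of −0.43 (SE 0.14, adjusted p = 0.0365) and lower in 4 of 4 libraries. By edgeR 5 of the 29 had an unadjusted p under 0.05, beside 2537 of all 9636 genes tested. The Ppp1r15a call was kept in 1 of the 4 fits with a library left out. In the same contrast 9 of 14 cell division genes, 9 of 11 monocyte markers and 2 of 15 dissociation genes fell; their part in the Ppp1r15a call was not tested.

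Of the 29 genes, 3 were higher in Lyve1+ than in Ccr2+ cells (14% of all genes) and 3 lower (17.4%). Both counts lie below the share of all genes. Dnajc3 rose by 0.61 (SE 0.13, adjusted p = 0.000950), at 374 against 204, 173 against 133, 201 against 118 and 177 against 126 CPM. Sec61b fell by 0.98 (SE 0.16, adjusted p = 2.44e-05), at 268 against 397, 469 against 802, 196 against 470 and 206 against 484 CPM. Lyve1+ cells thus hold the highest Dnajc3 and the lowest Sec61b of the 3 subsets in every library. Both calls held with any 1 library left out.

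Dnajb9 rose by 0.55 (SE 0.17, adjusted p = 0.0143) and Ddit3 by 0.55 (SE 0.18, adjusted p = 0.0230), each higher in 4 of 4 libraries. Without WT HFD or without WT ND, Dnajc3 alone was called higher. Sdf2l1 fell by 0.57 (SE 0.18, adjusted p = 0.0192), lower in 4 of 4 libraries. Sesn2 fell by 1.46 (SE 0.44, adjusted p = 0.0125) at very low levels, 0 against 5.79, 2.27 against 6.15, 8.27 against 13.1 and 4.06 against 15.6 CPM. Without CKO ND, Sec61b alone was called lower (12.2% of all genes). Cell division genes fell in this contrast, 13 of 14 with 0 higher, and dissociation genes rose, 6 of 15 with 1 lower; their part was not tested.

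The difference between Trem2+ and Lyve1+ cells was tested for dependence on diet and on genotype with interaction terms. For diet 0 members were higher (0.259% of all genes) and 0 lower (0.695%), and for genotype 0 higher (0.0208%) and 0 lower (0%). By edgeR 4 members had an unadjusted p under 0.05 for diet and 0 for genotype, and DESeq2 called none in either. With 4 residual degrees of freedom, these counts do not show that the subset differences are alike across diets.

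Among the other lists, genes of ER entry and glycosylation were counted in both contrasts with Lyve1+ cells, which share the 4 Lyve1+ profiles: 10 of 28 rose and 0 fell in Trem2+ against Lyve1+ cells, and 0 rose and 10 fell in Lyve1+ against Ccr2+ cells, beside the shares of all genes given above. Sec61g and Ssr4 are the most abundant of them. Of 22 other folding genes tested 4 rose and 0 fell in Trem2+ against Lyve1+ cells (Ero1lb, Erp29, Fkbp2 and Ppib). In the list of other eIF2α and ATF4 genes 7 of 32 rose in that contrast, among them the amino acid genes Slc7a11, Slc1a5, Mthfd2 and Psat1 (chosen after their values were seen), and 1, Nupr1, fell. In Lyve1+ against Ccr2+ cells, 8 of the 32 fell and 1 rose.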

How the data were processed

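Single-cell RNA counts of sorted fat macrophages came from 4 libraries, 1 for each genotype and diet. The values are the authors' deposited UMI counts per gene and cell, made with Cell Ranger 7.0.0 per the file headers, on GRCm38 per the submitters' processing notes. Cells with at least 500 UMIs, 300 genes and at most 10% mitochondrial UMIs were kept, and those with at least 2000 UMIs were thinned to 2000. Between libraries, CPM and ratios carry exact Poisson and exact conditional binomial 95% intervals, which cover counting error only; genes needed 10 CPM in a library compared. Log2 ratios of single genes and list medians add 1 CPM to both levels. Marker subsets were compared with edgeR 4.0.16 (R 4.3.3), quasi-likelihood, TMM, library as a block, Benjamini-Hochberg adjustment; the fit was tested on simulated data. DESeq2 1.42.0 was an alternative, as were other thinning, scaling, filters, subset rules and the removal of cells with high doublet scores (scanpy 1.11.5); doublets were otherwise kept. Gene positions came from GENCODE M21, which held 99.61% of the gene IDs. All 32 members are named, other lists by their 2 most abundant genes and any called in sets of 5 or fewer. The members and lists were chosen with earlier results of these data known.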

Additional observations from a re-analysis of the deposited data

Results flagged for a closer look

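For 5 genes the same contrast pointed in opposite directions in the 2 genotypes or on the 2 diets, with both 95% counting intervals leaving out 1. More members had ratios on opposite sides of 1 without meeting that condition. The share of all genes that met it is not given here, so it is not shown to be particular to these members. The median log2 ratio of all genes also differed between the contrasts. For CKO over WT it was −0.21 on HFD and 0.03 on ND. For HFD over ND it was −0.24 in WT and −0.48 in CKO. With 1 library in each group, the difference between the contrasts was not tested. Dnajc3, the gene of the PERK inhibitor p58IPK, had an HFD over ND ratio of 1.47 in WT and 0.746 in CKO. Herpud1, an ERAD adaptor gene, had 0.806 in WT and 1.18 in CKO. The CKO over WT ratio of the lectin gene Canx was 0.942 on HFD and 1.10 on ND, and that of the isomerase gene Pdia3 was 0.784 on HFD and 1.08 on ND. For Ppp1r15a, which encodes the eIF2α phosphatase subunit, it was 1.505 on HFD and 0.891 on ND. After TMM scaling the opposite directions were gone for Dnajc3 (log2 ratio 0.09 in CKO) and Canx (log2 ratio 0.16 on HFD) and stayed for the other 3.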

How the results depend on the processing

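Medians of single-library log2 ratios moved with scaling and cell choice. The folding median of CKO over WT on HFD was −0.13 with TMM scaling, −0.47 within 5 groups of gene span and −0.50 with the subsets weighted equally, and on ND it was −0.015 with equal weights. The folding median of HFD over ND in WT was 0.79, 0.71 and 0.68 under those 3 settings, and in CKO it was 0.56 with TMM, 0.22 within span groups and −0.034 in cells with a C1q UMI. The PERK-ATF4 median was taken over at most 3 genes, or over 5 with no filter. For CKO over WT on HFD it was 0.47 (thinning to 1000 UMIs), 0.44 (TMM), 0.068 (span groups) and −0.0096 (no filter). For HFD over ND in WT it was −0.96 (thinning to 1000), −0.45 (TMM), −0.92 (span groups), −0.42 (C1q cells) and −0.36 (no filter), and in CKO 0.16 (TMM), −0.73 (span groups), −0.090 (C1q cells) and −0.11 (no filter). The cause was not tested. Alternatives for the counts over both diets, and the removal of cells with division UMIs, were chosen after seeing the data: members over 1.5-fold higher in both HFD libraries were 6 with TMM (15.2% of all genes), and those lower were 1 with TMM (9.71%) and 2 in C1q cells (21.0%).

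Without the replicate block, which here is the library, 0 members were called in any of the 3 subset contrasts, in either direction. Of all genes 2.00% were then higher and 1.42% lower in Trem2+ over Lyve1+ cells. The shares were 4.46% and 3.84% in Lyve1+ over Ccr2+ cells, and 0.511% were lower in Trem2+ over Ccr2+ cells. No pairing of libraries across groups was possible because each group has 1 library. For Trem2+ over Lyve1+ cells, 3 members were higher with overlapping subsets (14.9% of all genes) and 7 lower with unthinned sums (17.7%), and P4hb turned to −0.038 with thinning to 1000. For Trem2+ over Ccr2+ cells, 2 were higher with at least 2 marker UMIs (11.4%) and 3 with unthinned sums (12.1%), while 3 were lower with at least 2 marker UMIs (11.1%), 2 with no filter (4.97%), 5 unthinned (13.4%), and 0 with overlapping subsets or thinning to 1000. For Lyve1+ over Ccr2+ cells 5 were higher (18.2%) and 5 lower (21.9%) with unthinned sums. With 1 library left out, members higher and lower ranged from 1 to 5 and 1 to 4 (Trem2+ over Lyve1+), 0 to 2 and 0 to 2 (Trem2+ over Ccr2+), and 1 to 3 and 1 to 3 (Lyve1+ over Ccr2+). Without CKO ND, 2 members were higher (6.94% of all genes) and 2 lower (6.95%) in Trem2+ over Ccr2+ cells. With any other library left out 0 were lower (4.09% to 4.85%). Of the other values, 902 library ratios moved by less than their counting interval and 248 by more. Among subset folds 151 kept direction and call, 71 lost the call and 1 reversed.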
